A study of Mus musculus with 6 samples.

Results

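Retn, Adipoq, Cfd, Lep, Plin1, Cidec, Adig, Pparg and Cebpa are genes best known from fat cells, and their transcripts were examined in the hind leg muscle of mice. They were 9 of the 16759 genes in the table, found by symbol and with no filter on expression. They had been picked with the difference between trained and untrained muscle in these same libraries already known, so their values for that difference are a description and carry no test. The control (Con) group was 3 male C57BL/6J mice without treadmill training. The exercise (EX) group was 3 mice of the same strain and sex that ran on a treadmill for 60 min a day, 5 days a week, for 6 weeks. Each EX mouse covered 22 km and was killed 24 h after its last session. All mice were 8 weeks old at the start, carried no transgene or deletion named in the labels, and were perfused with saline before dissection. Intermuscular fat was removed and a piece about as large as a soybean was taken for RNA, without a named muscle. There was 1 library per mouse.

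Fat cells store triglyceride in a large lipid droplet and release hormones called adipokines into the blood. The nuclear receptor encoded by Pparg and the transcription factor encoded by Cebpa drive the formation of fat cells and switch on many of the other genes named here. In muscle, fat cells lie between and around the fibres, while the fibres themselves burn fatty acids and use part of the same lipid enzymes. Pparg is also transcribed in endothelial cells and macrophages, and Cebpa in liver and myeloid cells.

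The start regions of the 9 genes were read from the RefSeq promoter table (assembly GRCm38.p6), which held all 9, with 12 start sites. The 250 bases before each start were searched on both strands. The C/EBP pattern TTGCNNAA, the pattern bound by the family to which Cebpa belongs, lay before the first listed start of 2 of the 9 genes, Lep and Plin1. Among 13034 promoters of genes in the test it was found in 8.06%. Cidec and Pparg held it before a later start. The 4 regions shown are those of Lep and Plin1, which were higher in EX and hold the pattern, of Adipoq, which was higher and does not, and of the third start of Pparg, which holds it and was not higher. Capitals mark the C/EBP pattern, and each line ends at the base before the start site.
Lep, chr6:29060101-29060220, plus strand: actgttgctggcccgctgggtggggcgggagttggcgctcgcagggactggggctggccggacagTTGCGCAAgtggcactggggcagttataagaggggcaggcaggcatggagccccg
Plin1, chr7:79732777-79732896, minus strand: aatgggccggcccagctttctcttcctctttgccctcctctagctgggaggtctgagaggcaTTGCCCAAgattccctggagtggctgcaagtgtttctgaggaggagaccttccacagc
Adipoq, chr16:23146416-23146535, plus strand: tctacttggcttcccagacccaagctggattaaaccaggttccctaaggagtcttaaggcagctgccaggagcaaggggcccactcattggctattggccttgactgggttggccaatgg
Pparg, chr6:115421946-115422065, plus strand: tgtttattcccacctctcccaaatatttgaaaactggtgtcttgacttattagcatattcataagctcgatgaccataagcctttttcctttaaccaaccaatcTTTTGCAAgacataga
In the Lep and Plin1 regions the pattern stood at positions -55 to -48 and -58 to -51 from the start. In the Pparg region it stood at -16 to -9, on the other strand. The 3 other patterns searched were the TATA box TATAAA, found in 7.86% of promoters, the nuclear receptor element AGGTCA, found in 11.6%, and the CCAAT box, found in 36.1%. At the first listed starts, Cebpa held the TATA box, Adig and Pparg the receptor element, and Adipoq 3 CCAAT boxes. A match is a run of letters and says nothing about binding in muscle.

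The libraries held between 13845362 and 16240431 counts on genes. A count of 0 allows up to 3 counts, or 0.188 to 0.214 CPM, for counting error alone. CPM are counts per library total after TMM scaling, and they compare a gene with itself across libraries. Transcripts of 10 skeletal muscle fibre markers summed to 192360 to 197643 CPM in Con and 208056 to 217608 CPM in EX. The 9 fat cell genes summed to 27.8, 26.2 and 27 CPM in Con and to 47.6, 52.3 and 49.8 CPM in EX. They were thus a small part of the RNA in every library, and all of their counts were whole numbers.

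The transcripts fell into a set of 6 that was higher in every EX library than in every Con library, and a set of 3 whose groups overlapped. The first set was Retn, Adipoq, Cfd, Lep, Plin1 and Cidec, which summed to 14, 14.6 and 15.3 CPM in Con and to 34.7, 39.1 and 37.2 CPM in EX. The second set was Adig, Pparg and Cebpa, which summed to 13.7, 11.7 and 11.7 CPM in Con and to 12.9, 13.2 and 12.6 CPM in EX. The same 6 had an adjusted p-value under 0.05 in edgeR's quasi-likelihood test over all 16716 genes with a count, and all 6 were higher in EX. Of all genes tested, 12.0% passed this threshold, 6.08% higher and 5.96% lower in EX. This split of 1016 higher and 997 lower was 1044 and 989 with scaling by median ratios and 798 and 1252 with totals without the 20 most abundant genes. With limma, which changes the test and the values as well, it was 355 and 764 on log2(FPKM + 0.1), 361 and 749 on log2(FPKM + 1) and 315 and 1196 on log2(TPM + 0.1). For 13.4% of all genes the lowest EX value lay above the highest Con value. Because the 9 genes were picked on this difference, nothing is read from their count against these shares. Their median log2 fold change was 1.21, and that of all genes was 0.00.

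**Figure D1:**
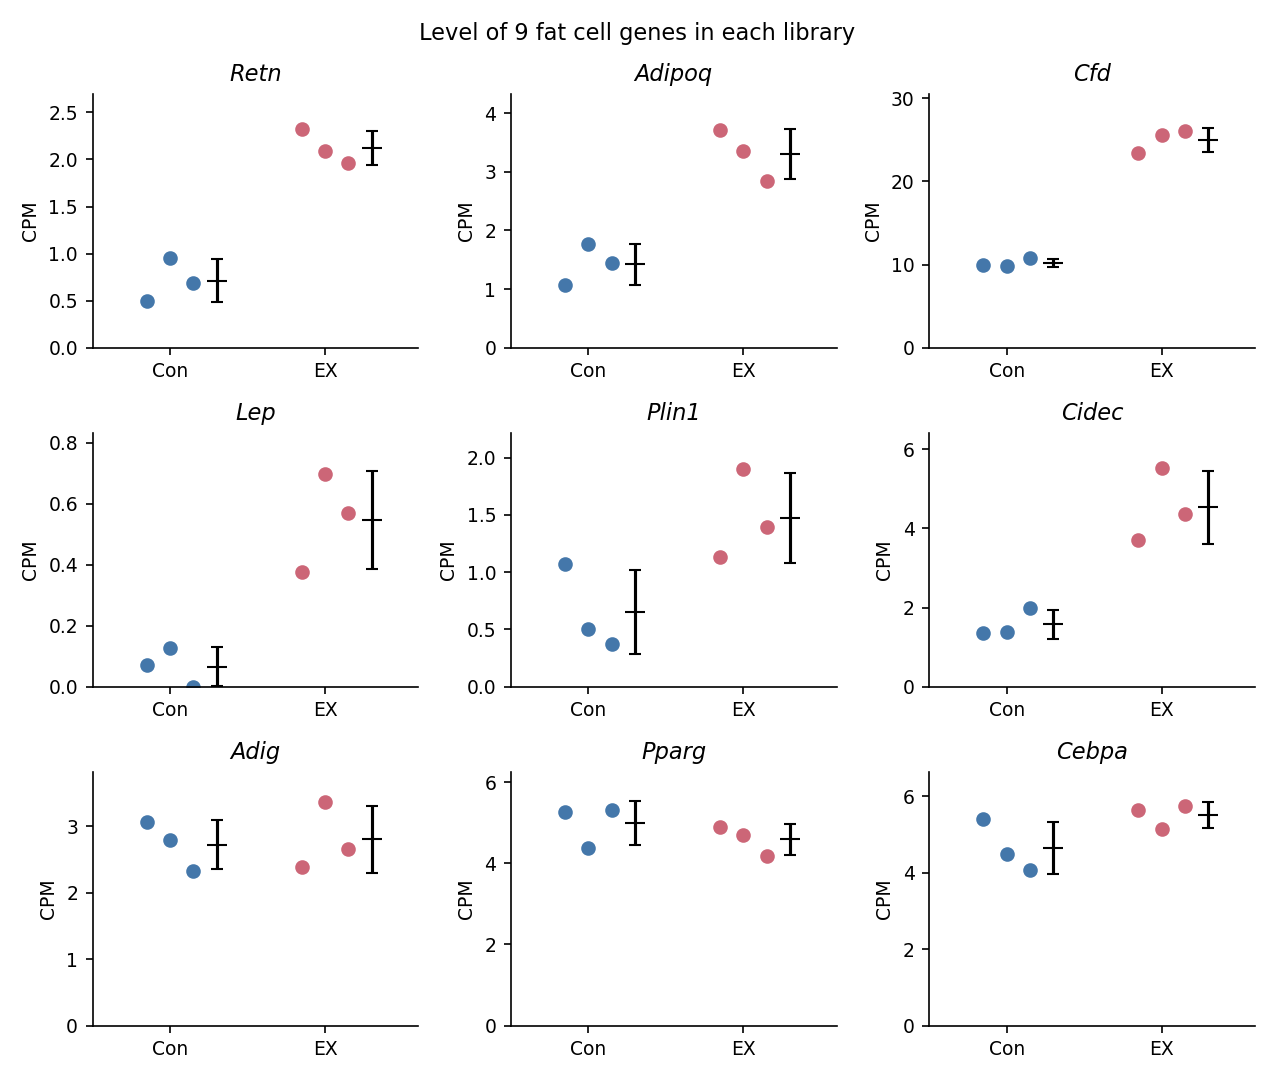
Level of each of the 9 genes in CPM (vertical axes from 0) in the 3 Con (blue) and 3 EX (red) libraries, with the mean and SD of each group in black. The points of the groups are apart for Retn, Adipoq, Cfd, Lep, Plin1 and Cidec, and mixed for Adig, Pparg and Cebpa.

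Among the secreted products, Cfd (gene 11537) encodes adipsin, the complement factor D protease that fat cells release. It had the most counts of the 9, namely 140, 155 and 172 for Con against 373, 403 and 412 for EX. This was 9.97, 9.82 and 10.8 CPM in Con and 23.4, 25.6 and 26.1 CPM in EX. The groups were far apart for their spread, with 10.2 ± 0.511 CPM (SD, n = 3) in Con and 25 ± 1.39 CPM in EX. The ratio of means was 2.46 and the log2 fold change 1.29 (standard error 0.08), which was the most precise of the 9.

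Retn (57264) encodes resistin, an adipokine that opposes insulin action in mice. Its counts were 7, 15 and 11 in Con and 37, 33 and 31 in EX, or 0.498, 0.951 and 0.689 CPM against 2.32, 2.09 and 1.96 CPM. The lowest EX library lay above 1.9 CPM, while no Con library reached 1. The log2 fold change was 1.55 (standard error 0.27).

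Adipoq (11450) encodes adiponectin, an adipokine that favours fatty acid oxidation in muscle. It was counted 15, 28 and 23 times in Con and 59, 53 and 45 times in EX, or at 1.07, 1.77 and 1.44 CPM against 3.71, 3.36 and 2.85 CPM. The groups did not overlap, and the log2 fold change was 1.19 (standard error 0.21), close to that of Plin1 at 1.21 (standard error 0.33). Retn and Adipoq had the same order of libraries, with replicate 2 highest in Con and replicate 1 highest in EX.

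Lep (16846) encodes leptin, the hormone by which fat tissue signals its stores to the brain. Only 1, 2 and 0 counts were seen in the Con libraries, so that every Con library lay at or under the limit that a count of 0 allows. The EX libraries held 6, 11 and 9 counts, or 0.377, 0.698 and 0.569 CPM, and all lay above that limit. Over the group sums of 3 and 26 counts, the ratio scaled by library size was 8.36, with an exact interval of 2.56 to 43.1 that covers counting error only. The fitted log2 fold change of 2.92 (standard error 0.73) depends on how a count of 0 is handled, and without EX replicate 2 Lep no longer passed the threshold.

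Of the lipid droplet proteins, Cidec (14311) encodes the protein that lets droplets fuse into the single large droplet of a white fat cell. Con libraries held 19, 22 and 32 counts and EX libraries 59, 87 and 69, or 1.35, 1.39 and 2 CPM against 3.71, 5.52 and 4.36 CPM. All EX libraries lay above all Con libraries, although EX replicate 2 stood well above the other two. The log2 fold change was 1.5 (standard error 0.20).

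Plin1 (103968) encodes perilipin, the coat protein that guards the droplet against lipases. The counts were 15, 8 and 6 in Con and 18, 30 and 22 in EX, or 1.07, 0.507 and 0.376 CPM against 1.13, 1.9 and 1.39 CPM. Here the groups came close, since Con replicate 1 was just under EX replicate 1. The log2 fold change was 1.21 (standard error 0.33). Plin1 was the least settled of the 6, and passed the threshold under 4 of the 13 other fits that gave it a value. It failed with DESeq2, with limma on each normalized scale, and without Con replicate 2, Con replicate 3, or any single EX library.

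Adig (246747) encodes adipogenin, a small membrane protein of fat cells. Its counts were 43, 44 and 37 in Con and 38, 53 and 42 in EX, or 3.06, 2.79 and 2.32 CPM against 2.39, 3.36 and 2.66 CPM. The groups overlapped throughout. The log2 fold change was 0.05, with a 95% interval of -0.32 to 0.41 from its standard error.

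Of the transcription factors, Pparg (19016) was counted 74, 69 and 85 times in Con and 78, 74 and 66 times in EX. This was 5.27, 4.37 and 5.32 CPM against 4.9, 4.69 and 4.17 CPM, with overlapping groups. Its log2 fold change was -0.12, with an interval of -0.40 to 0.16. Cebpa (12606) was counted 76, 71 and 65 times in Con and 90, 81 and 91 times in EX, or at 5.41, 4.5 and 4.07 CPM against 5.65, 5.14 and 5.76 CPM. Con replicate 1 lay within the EX range, and the log2 fold change was 0.25, with an interval of -0.02 to 0.53. In the GENCODE M21 annotation of GRCm38, exons of Cebpa overlap those of Gm45091 on the opposite strand. Whether counting used strand is not given in the sources used here, so reads of both genes may be mixed in this value.

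Per transcript length, the order of the genes differed between the groups. In FPKM, which divide counts by gene length and library size, Con muscle ran from Cfd at 17.5 ± 1.11 (SD, n = 3) and Adig at 9.02 ± 1.04 through Pparg, Retn, Cebpa, Adipoq and Cidec, between 3.16 and 1.16, to Plin1 at 0.43 and Lep at 0.02. From Pparg to Cidec, each gene overlapped the next in range. In EX muscle Cfd stood at 41.1 ± 1.88 FPKM, Adig at 8.87 ± 1.53 and Retn at 7.96 ± 0.86, and the ranges of Adig and Retn overlapped. Adipoq at 3.57 FPKM, Cidec at 3.19 and Pparg at 2.88 then followed, with overlap between each gene and the next, before Cebpa at 2.34, Plin1 at 0.927 and Lep at 0.183. The mean of Retn was thus under that of Pparg in Con and above it in EX, where the ranges were apart.

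How far the 9 genes moved by 1 common ratio was described on the counts by setting each gene's share of the 9-gene total equal in all columns and comparing expected with observed counts. Pearson's chi-square divided by its degrees of freedom is 1 when counting error alone is present. For the Con and EX group sums it was 19.3 over the 9 genes (8 degrees of freedom). The genes were picked with this difference known, and some are also transcribed outside fat cells, so this value is no test of the amount of fat. Pparg gave 36.4% of the chi-square, with 228 counts in Con where 153 were expected and 218 in EX where 293 were expected. Cfd gave 17.3%, in the opposite direction, with 467 against 567 in Con. Cebpa gave 14.9% and Adig 14.4%, both with more counts in Con and fewer in EX than expected. The value was 8.94 when Pparg and Cebpa were left out.

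**Figure D2:**
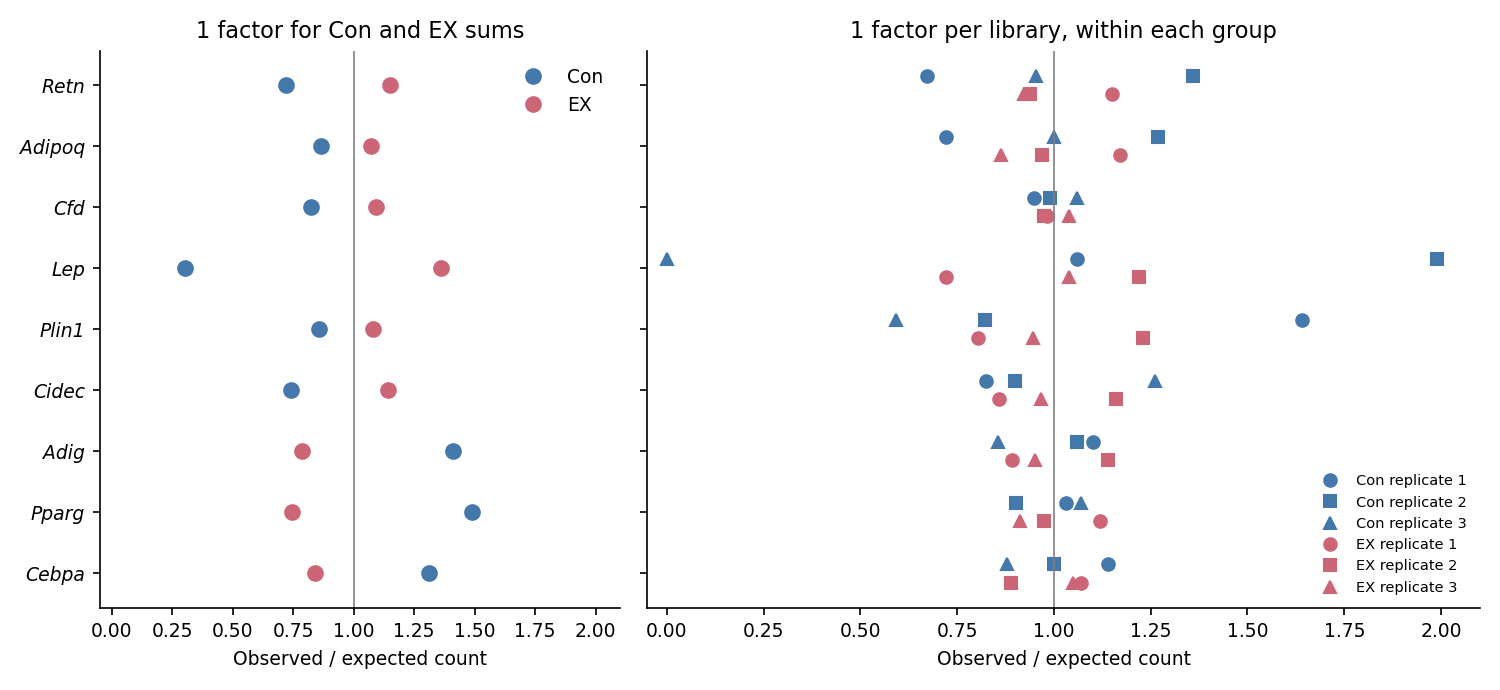
Observed over expected count (horizontal axes, ratio without unit) of the 9 genes under 1 common factor, for the Con and EX group sums (left) and for the 3 libraries within each group (right, marker shape for the replicate). On the left, the 6 genes of the first set lie under 1 in Con and above 1 in EX, and Adig, Pparg and Cebpa lie on the other sides.

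Within a group, where the difference that chose the genes plays no part, the same measure was 1.37 over the 3 Con libraries and 1.03 over the 3 EX libraries, each with 16 degrees of freedom. The widest ratios were those of Lep and Plin1, the genes with the fewest counts. Con replicate 1 held 1.64 times the expected count of Plin1, and Con replicate 3 held 0.593 times. For Lep, few counts were expected in any Con library, and the chi-square is a rough measure there.

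With the genes then split by what had been seen, the 6 genes of the first set had a value of 1.31 between the group sums and the other 3 of 1.89. A split made after the values were seen lowers this number by its construction, and it is given as a description only. Within the groups, the values for the 6 genes were 1.57 in Con and 1.13 in EX. Cfd made up 65.3% to 71.1% of the counts of the 6 in every library, with the Con range of 67.4% to 71.1% overlapping the EX range of 65.3% to 70.1%. Cidec took 9.57% to 13.1% in Con and 10.7% to 14.1% in EX, and Retn 3.55% to 6.52% and 5.27% to 6.7%. The ranges of Adipoq, 7.61% to 12.2% and 7.65% to 10.7%, and of Plin1, 2.46% to 7.61% and 3.26% to 4.86%, also overlapped. Those of Lep did not, with 0% to 0.87% in Con and 1.09% to 1.78% in EX. In bulk tissue, more fat cells and more of these transcripts per fat cell cannot be told apart.

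A further 32 genes transcribed in fat cells were followed, from fatty acid uptake and synthesis to triglyceride storage and release. Muscle fibres use part of the same lipid enzymes, so the list does not stand for fat cells alone. Its most abundant genes in Con were Car3 (1029 CPM), Slc2a4 (932 CPM) and Gpd1 (687 CPM). Of the 32 genes, 7 rose, 6 fell and 19 did not pass the test, with a median log2 fold change of 0.11 against 0.00 for all genes. Over all genes tested, 6.08% were higher and 5.96% lower past the threshold. Without EX replicate 3, 3 of them fell. Their summed level was 5045 to 5152 CPM in Con and 4725 to 4797 CPM in EX, and without Car3 alone, left out after its values were seen, the groups overlapped, with 4007 to 4147 CPM in Con and 4003 to 4095 CPM in EX. This list was written with earlier results of these data known.

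Scd1, the desaturase that makes monounsaturated fatty acids, rose by 0.86 on the log2 scale (standard error 0.05, adjusted p = 2.6e-17, edgeR). Its counts were 489, 549 and 539 in Con and 983, 990 and 1001 in EX. Pck1, which supplies glycerol for triglyceride in fat cells, rose by 0.82 (standard error 0.16, adjusted p = 1.5e-04, edgeR), from 33, 51 and 54 counts to 88, 89 and 76. Fasn, the fatty acid synthase, rose by 0.57 (standard error 0.07, adjusted p = 8.7e-09, edgeR), and Cyp2e1, a cytochrome P450 enzyme, by 0.40 (standard error 0.08, adjusted p = 2.8e-04, edgeR). These 4 were named as the called genes of the list with the largest log2 fold changes, and for each the groups did not overlap. For 13.4% of all genes the lowest EX value lay above the highest Con value.

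Car3, a carbonic anhydrase abundant in both fat and muscle, fell by 0.53 on the log2 scale (standard error 0.03, adjusted p = 1.3e-16, edgeR). It went from 1029 ± 21.6 CPM in Con to 714 ± 19.2 CPM in EX (SD, n = 3). Lpl, the lipase that frees fatty acids from circulating lipoproteins, fell by 0.40 (standard error 0.04, adjusted p = 4.1e-11, edgeR). Gpam, which starts triglyceride synthesis, fell by 0.25 (adjusted p = 3.1e-06) and Mlxipl, a glucose-responsive transcription factor, by 0.22 (adjusted p = 8.5e-04), both by edgeR. Mlxipl lost the call under 3 of the 14 other fits, with limma on log2(FPKM + 1) and without EX replicate 1 or EX replicate 3. Fabp4, a fatty acid binding protein of fat cells, endothelium and macrophages, had 228 ± 10.5 CPM in Con and 214 ± 3.66 CPM in EX and did not pass the test.

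The counts of these genes were mostly higher than those of the 9, since 17 of the 32 averaged at least 20 CPM over the 6 libraries, and none of the 9 did. Of those 17, 4 rose and 6 fell, with a median log2 fold change of -0.09. Of the 15 under 20 CPM, 3 rose, none fell and 12 did not pass the test, with a median of 0.26. These counts stand against the same 6.08% and 5.96% of all genes. The 2 with the fewest counts, singled out after their values were seen, were Acvr1c, a receptor for activin-type ligands, and Lgals12, a galectin of fat cells. For Acvr1c, 0, 1 and 1 counts in Con stood against 4, 4 and 6 in EX, and for Lgals12 1, 0 and 5 against 3, 11 and 9. Neither passed the test (adjusted p = 0.0624 and 0.0792, edgeR), while over the 13 other fits that gave each a value Acvr1c passed in none and Lgals12 in 1.

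**Figure D3:**
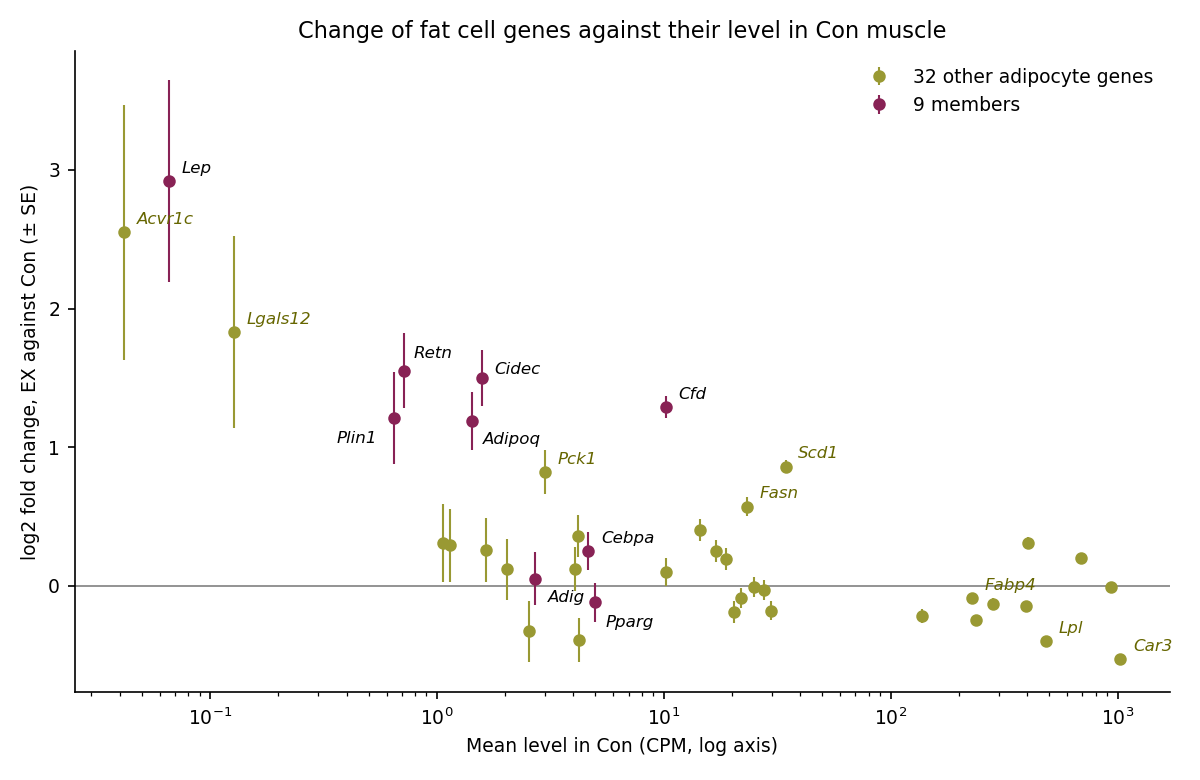
Log2 fold change of EX against Con with its standard error (vertical axis) against the mean level in Con in CPM (horizontal log axis), for the 9 genes (purple) and 32 other fat cell genes (olive). Cfd, at 10.2 CPM in Con, has a log2 fold change of 1.29, while genes of the other list above 100 CPM lie between -0.53 (Car3) and 0.31 (Plin4).

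Of 12 regulators of fat cell formation other than Pparg and Cebpa, 1 rose, 5 fell and 6 did not pass the test, where 6.08% of all genes rose and 5.96% fell. Without EX replicate 1 only 1 fell. Srebf1, which drives fatty acid synthesis genes, rose by 0.39 on the log2 scale (standard error 0.04, adjusted p = 6.1e-09, edgeR), from 87.3 ± 3.07 to 114 ± 1.59 CPM (SD, n = 3). Those that fell were Bmp4, by 0.47 (adjusted p = 0.0126), Cebpd, by 0.39 (adjusted p = 9.5e-04), Ebf1, by 0.39 (adjusted p = 7.2e-04), Nr1h3, the nuclear receptor LXR alpha, by 0.29 (adjusted p = 0.0118), and Klf9, by 0.12 (adjusted p = 0.0322), all by edgeR. Klf9 lost the call under 8 of the 14 other fits, Nr1h3 under 5, Bmp4 under 4 and Cebpd under 2. Srebf1 and Ebf1 kept it under all 14. Cebpb had 44.8 ± 1.57 CPM in Con and 48.1 ± 2.78 CPM in EX and did not pass.

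On the receiving side were the genes for receptors and binding proteins of the adipokines. Adipor1, an adiponectin receptor, had 276 ± 8.67 CPM in Con and 279 ± 5.55 CPM in EX. Adipor2 had 146 ± 4.77 and 149 ± 2.62 CPM. Of the 6 genes, Cdh13 alone, which encodes T-cadherin and binds adiponectin, passed the test, where 12.0% of all genes did, with a rise of 0.18 (standard error 0.05, adjusted p = 0.00514, edgeR). This call was lost under 7 of the 14 other fits. Lepr, the leptin receptor, was counted 30, 45 and 45 times in Con and 44, 64 and 61 times in EX, with a log2 fold change of 0.44 (standard error 0.18) that did not pass (adjusted p = 0.113, edgeR).

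Brown and beige fat markers ranged in Con from Otop1 at 0.239 CPM to Ebf2 at 6.71 and Prdm16 at 10.7 CPM. Of 7 genes, none rose and 1 fell, Elovl3, a fatty acid elongase, counted 6, 8 and 5 times in Con against 3, 1 and 0 times in EX (adjusted p = 0.0454, edgeR). That 1 of 7 compares with 12.0% of all genes called in either direction, and the call was lost whenever any 1 library was left out. Cidea, a droplet protein of brown fat, was counted 8, 3 and 4 times in Con and 7, 6 and 3 times in EX. Ucp1, also on the list of 8 brown and beige markers, was not among the 16759 genes. Among 10 markers of fibro-adipogenic progenitors, the connective tissue cells of muscle that can turn into fat cells, none passed edgeR's test, 3 had an unadjusted p-value under 0.05, and none passed with DESeq2 or limma. Dcn passed in 2 other fits (lower, with totals without the 20 most abundant genes and without Con replicate 3), and Dpt in 1 (higher, without Con replicate 1). Their sum was 561 to 619 CPM in Con and 565 to 583 CPM in EX.

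Markers of other cell types also differed between the groups, and the counts of each list stand against 6.08% of all genes called higher and 5.96% called lower, or 12.0% in either direction. Of 10 macrophage markers, 6 rose and none fell, no marker was at 0 in any library, and the summed level was 44.1 to 48.6 CPM in Con and 78.9 to 86.2 CPM in EX. The 6 that rose were Lyz2, Csf1r, Mrc1 and the 3 genes of complement C1q. Mrc1 lost the call with limma on log2(FPKM + 0.1) and on log2(TPM + 0.1). Of 10 tendon markers, 6 rose and none fell, with sums of 438 to 452 and 672 to 704 CPM, and with no marker at 0. All 7 slow fibre markers rose, from 99.3 to 104 CPM in sum to 349 to 375 CPM. Atp2a2 and Myl3 held most of the Con sum, with means of 54 and 42.5 CPM, while Myh7 went from 1 to 102 CPM. The median log2 fold change of the 7 was 4.26. Of 5 lymphatic endothelial markers, 2 rose, Lyve1 and Mmrn1, with sums of 22 to 25.6 and 27.3 to 28 CPM. Of 6 blood cell markers 1 rose, Hba-a1, with sums of 241 to 265 CPM in Con and 263 to 290 CPM in EX, and that call was lost under 6 of the 14 other fits, namely limma on each normalized scale and the fits that left out replicate 2 of either group or EX replicate 3.

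In the other direction, 6 of 10 endothelial markers and 4 of 8 Schwann cell markers fell, where 5.96% of all genes did, with sums of 927 to 944 against 810 to 827 CPM and of 111 to 122 against 84.4 to 88.1 CPM. Of the endothelial markers 1 rose, Cldn5, by 0.26 (adjusted p = 0.0182, edgeR), and it lost the call under 8 of the 14 other fits. Without EX replicate 3, 3 of the endothelial markers fell. Of 6 smooth muscle markers 2 fell and 1 rose, Acta2, which passed under 3 of the 14 other fits. Of the skeletal muscle fibre markers, 5 rose and 2 fell in edgeR, and none rose with limma on the normalized values. Of all genes, 6.08% rose. The part of these other cells, and of how each piece of muscle was cut, in the difference of the 6 genes was not tested.

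**Figure D4:**
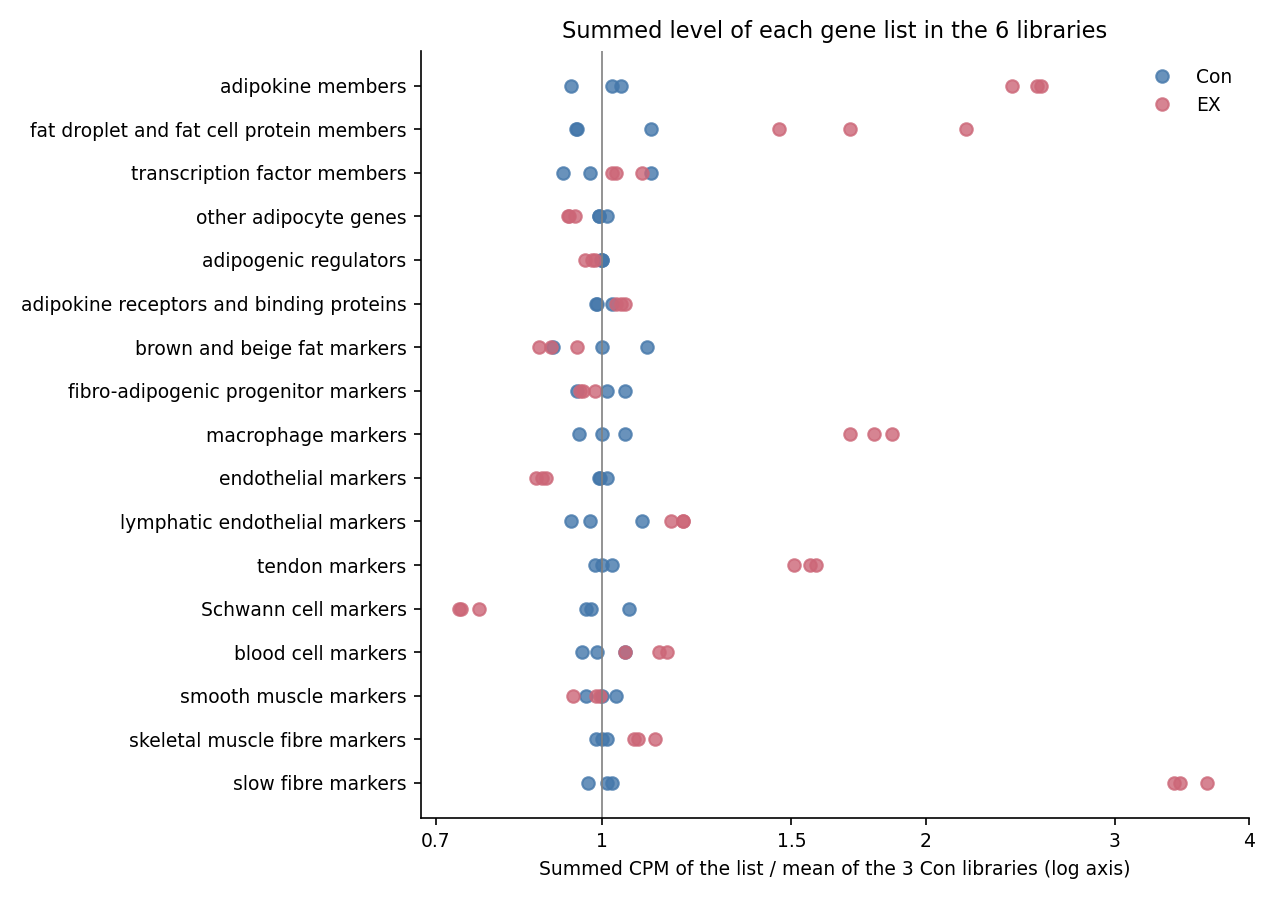
Summed CPM of each gene list in the 6 libraries, divided by the mean of the 3 Con libraries (horizontal log axis), with Con in blue and EX in red. The slow fibre markers (3.41 to 3.66) and the adipokines (2.41 to 2.56) lie furthest to the right in EX, and the other adipocyte genes lie just under 1. The adipokines were picked with this difference known, so nothing is read from their place. A sum follows the most abundant genes of its list, which for the adipokines is Cfd.

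The genes whose levels followed the 9 most closely over the 6 libraries were ranked by Pearson's r with the mean of the 9 centred log2 CPM, over 10876 genes that averaged 1 FPKM or more. That mean was -0.43, -0.40 and -0.57 in Con and 0.38, 0.61 and 0.43 in EX. Lyz2, the macrophage lysozyme, came first with r = 0.9991. Alas1, the first enzyme of haem synthesis, had r = 0.9985, Kcng4, a potassium channel subunit, 0.9977, Gpd1, a glycerol phosphate dehydrogenase, 0.9962, and Rnh1, an inhibitor of ribonucleases, 0.9958. The 6 points fall into the Con and EX groups, so each r mostly restates a difference between groups. The counts of Lyz2 were 264, 296 and 271 in Con against 501, 554 and 497 in EX, and EX replicate 2 was highest both for Lyz2 and for the mean of the 9 genes.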

How the data were processed

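Total RNA of hind leg muscle was sequenced by the authors on DNBseq with 150 bp paired-end reads, with 1 library per mouse and 3 mice in each of 2 groups. The deposited table gives for each gene and library an estimated count, an FPKM value and a TPM value. The deposited estimated counts are not normalized, and between 4.18% and 4.44% of them per library were fractional. For the FPKM and TPM values the authors normalized for gene length and library size. The submitters' processing notes name GRCm38.p6, cutadapt, featureCounts and MultiQC. The study's methods name another assembly and the aligner HISAT, and the build of the counts was not settled. The table gives no positions. The 6 columns of group means were not used.

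Counts were rounded to integers and fitted with edgeR 4.0.16 in R 4.3.3 (TMM, quasi-likelihood test), which gave CPM, log2 fold changes and p-values, with Benjamini-Hochberg adjustment over all 16716 genes with a count and a threshold of 0.05. The fit was tested on counts simulated from its own dispersion, with changes set only in better counted genes. Genes with as few counts as Lep, Acvr1c and Lgals12 were outside that test. Standard errors are the log2 fold change over the root of F, and intervals are 1.96 standard errors to each side. The p-values measure the spread between these 6 mice, and no estimated count of the 9 genes needed rounding. The labels give no batch. Other fits were median ratios, totals without the 20 most abundant genes, a filter of 1 FPKM, DESeq2 1.42.0, limma 3.58.1 on log2(FPKM + 0.1), log2(FPKM + 1) and log2(TPM + 0.1), which understates the change of low genes, a replicate block, and each library left out.

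The 9 genes and all lists were chosen with earlier results of these data known. Named besides the 9 were, in each of 3 lists (other adipocyte genes, regulators, receptors), up to 4 called genes with the largest and 4 with the smallest fold changes, and the 5 genes most like the mean of the 9. Genes without a test and members of marker lists were named after their values were seen.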

Additional observations from a re-analysis of the deposited data

How the results depend on the processing

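Of the genes in the lists that passed the threshold, none changed sign under any alternative, and signs were not compared for the rest of the 2013 genes. Of all genes, 2013 passed the threshold in edgeR, 1174 with DESeq2, 1119 with limma on log2(FPKM + 0.1), 1110 on log2(FPKM + 1) and 1511 on log2(TPM + 0.1), and 1125 to 1757 when 1 library was left out, with the lowest without EX replicate 1. With a replicate block 1856 passed. The numbers do not pair the mice, since deviations of same-numbered libraries correlated at -0.0841, -0.0519 and -0.0727 over 10883 genes. Of the other adipocyte genes, 3 to 7 fell when 1 library was left out, with 3 without EX replicate 3. Their split of 7 higher and 6 lower turned to 6 and 7 with totals without the 20 most abundant genes and to 5 and 8 with limma on log2(TPM + 0.1). The log2 fold changes ranged over all fits from 1.27 to 1.81 for Retn, 0.81 to 1.38 for Adipoq, 1.19 to 1.35 for Cfd and 0.95 to 1.71 for Cidec, all of which passed in all 14 other fits. Plin1 ranged from 0.44 to 1.72 and Lep from 0.21 to 3.75. DESeq2 gave no adjusted p-value for Lep. Neither Lep nor Plin1 has a value under the filter of 1 FPKM. Adig, Pparg and Cebpa passed in none. The common factor value between group sums was 19.3, 13.2 to 21.9 with each gene or library left out in turn, and 8.94 without both Pparg and Cebpa. It was 1.31 over 6 genes and 1.89 over 3, subsets chosen after seeing the data. The causes of these shifts were not tested. The highest count in a library was 11 for Lep, 30 for Plin1 and 37 for Retn.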
